A study of Mus musculus with 6 samples.

Results

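Genes of the visceral endoderm and its yolk sac derivative, coding for secreted carrier proteins, an uptake receptor and a liver-type transcription factor, were followed through retinoic acid (RA) treatment of mouse embryoid bodies (EBs). The list held 10 genes, Afp, Ttr, Apoa1, Apoa2, Apoa4, Apob, Rbp4, Trf, Hnf4a and Cubn, taken by symbol from the 19938 genes tested, and each had 1 probe set with a single gene symbol. The EBs were grown from the established mouse ES (embryonic stem) cell line R1, plated at 35000 cells per ml without leukaemia inhibitory factor (Lif) and left to form floating aggregates. RA at 2 μM was added to EBs that were 4 days old by the treatment notes and the study's methods, while the growth notes give 3 or 4 days of EB formation. Day 0 is the day of addition, with EBs taken before RA, and day 3 and day 4 are EBs after 3 and 4 days in RA, with 2 arrays (Affymetrix Mouse Gene 1.0 ST) per day. Untreated EBs of matching age are not among the samples, so the effects of RA and of longer culture cannot be told apart. The labels do not say whether the 2 arrays of a day came from separate cultures, and the p-values therefore rest on a spread between arrays that may be only technical.

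The visceral endoderm is the epithelium that surrounds the early mouse embryo, and in EBs a layer of the same kind can form on the outer surface. Before the placenta and liver take over, it absorbs nutrients from its apical side by receptor-mediated endocytosis and secretes carrier proteins towards the embryo, among them alpha-fetoprotein (Afp), transferrin (Trf, iron), transthyretin (Ttr, thyroid hormone and, through Rbp4, retinol) and the apolipoproteins of lipid particles. Hnf4a is the nuclear receptor that is needed for this secretory programme in the mouse visceral endoderm and later in the liver. Rbp4 ties the set to the treatment in one respect, since its protein carries retinol, the precursor from which cells make RA.

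Levels are log2 intensities after Robust Multichip Average (RMA) normalization, which sets all arrays to a common distribution, so that a change is read against all other transcripts measured. The arrays of a day correlated at 0.999 on each of the 3 days, and the array medians over all probe sets lay between 6.69 and 6.85. A change was called at an adjusted p of 0.05 or below in limma, with Benjamini-Hochberg adjustment over all 19938 genes. By the limits that the study's methods set for an undetectable gene, applied here over all 6 arrays (a mean below 6 and a standard deviation, SD, below 0.3), 30.2% of the genes were undetectable, and Afp and Apob were 2 of the 10.

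Between day 4 and day 0, 4 of the 10 genes were higher (Apoa1, Rbp4, Ttr and Afp), 2 were lower (Cubn and Trf) and 4 passed in neither direction (Apoa2, Apoa4, Apob and Hnf4a). Over all genes 25.9% were called higher and 25.6% lower in the same comparison. Between day 3 and day 0, Apoa1, Rbp4 and Ttr were higher, Trf and Cubn were lower and the other 5 did not pass, against 23.8% of all genes higher and 28.1% lower. Between day 4 and day 3, Afp was higher, Cubn was lower and 8 did not pass, against 15.8% of all genes higher and 12.2% lower. Without replicate 1 of day 0, 2 of the 10 genes were called at day 4 against day 0, and without replicate 2 of day 4, 3 were. Between day 4 and day 3, 0 were called in limma without replicate 1 of day 3 (2 higher and 4 lower had an unadjusted p under 0.05), and 1 was called when each of the other 3 arrays of those days was left out in turn. With 10 genes, the counts are near the background of all genes and do not set the group apart. The median log2 change of the 10 genes was 0.23 at day 4 against day 0, 0.01 at day 3 against day 0 and 0.01 at day 4 against day 3, beside medians over all genes of 0.00, -0.05 and 0.05. The value of 0.23 was 0.08 with each array centred on the median of its genes and 0.15 without replicate 2 of day 4. The carriers did not move as a block: Apoa1, Rbp4 and Ttr, which rose, stood beside apolipoproteins without a called change and an uptake receptor and an iron carrier that fell.

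**Figure D1:**
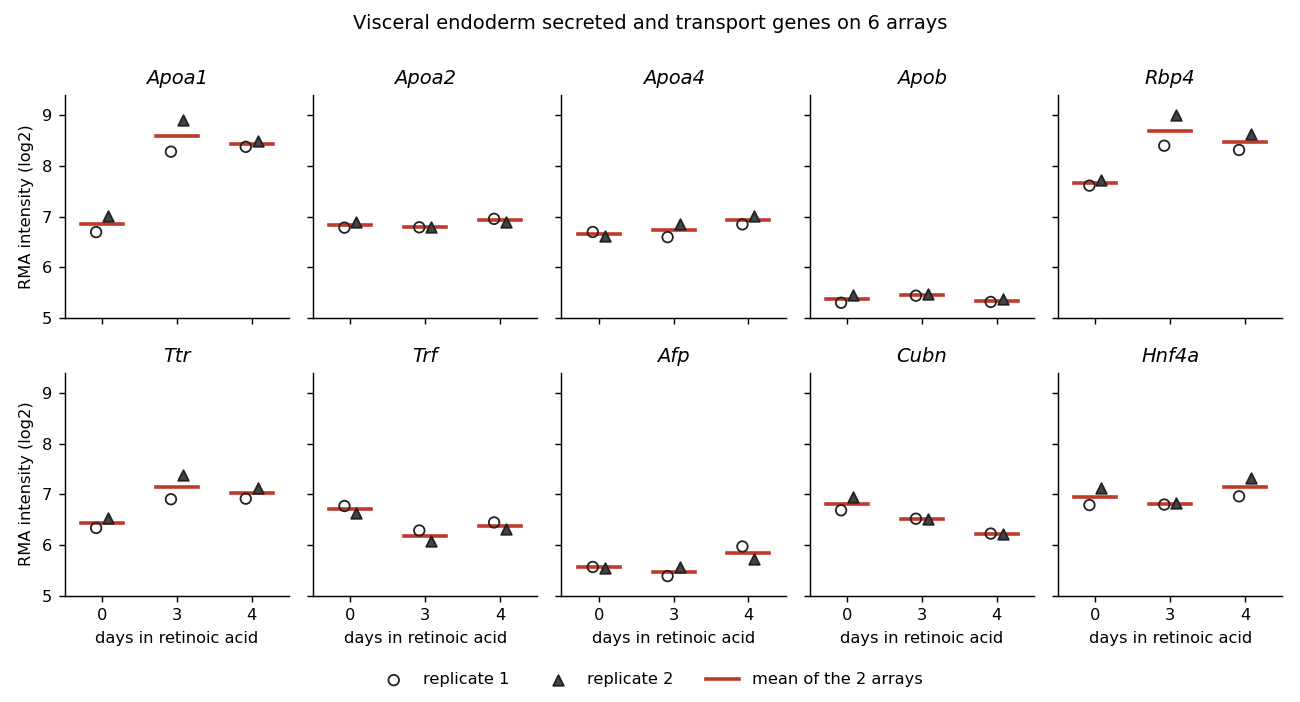
RMA intensity (log2, vertical axis) of the 10 genes on each of the 6 arrays, by days in RA (horizontal axis), with open circles for replicate 1, filled triangles for replicate 2 and a bar for their mean. Apoa1, Rbp4 and Ttr stood higher on all arrays of days 3 and 4 than on those of day 0, while Cubn and Trf stood lower.

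Promoters are shown for Apoa1 and Rbp4, the genes with a promoter window that were called higher on both days in RA, and for Afp, the usual marker of the tissue, which was under the detection limits. Each is given as the 250 bases before the start of transcription in RefSeq on GRCm38.p6, 5′ to 3′ on the gene's own strand. Capitals mark matches, on either strand, to short forms of the sites of liver-type factors and of the TATA box. Rbp4, on the minus strand, has 2 annotated starts, and both windows are given.
Apoa1, chr9:46228380-46228629, plus strand: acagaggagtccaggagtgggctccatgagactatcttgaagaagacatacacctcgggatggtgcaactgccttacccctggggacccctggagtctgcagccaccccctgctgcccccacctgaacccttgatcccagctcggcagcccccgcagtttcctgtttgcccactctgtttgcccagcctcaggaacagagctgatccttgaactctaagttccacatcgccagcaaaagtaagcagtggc
Rbp4, upstream start, chr19:38125322-38125571, minus strand: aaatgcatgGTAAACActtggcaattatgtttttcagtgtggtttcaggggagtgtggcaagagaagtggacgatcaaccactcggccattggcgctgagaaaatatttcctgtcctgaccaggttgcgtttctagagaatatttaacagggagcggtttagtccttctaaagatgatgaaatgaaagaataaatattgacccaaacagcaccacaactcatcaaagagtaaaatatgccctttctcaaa
Rbp4, downstream start, chr19:38124812-38125061, minus strand: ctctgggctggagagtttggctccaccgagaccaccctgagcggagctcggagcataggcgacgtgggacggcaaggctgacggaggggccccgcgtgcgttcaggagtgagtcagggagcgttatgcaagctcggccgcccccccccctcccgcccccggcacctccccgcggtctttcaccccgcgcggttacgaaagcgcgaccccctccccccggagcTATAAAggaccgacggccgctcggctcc
Afp, chr5:90490464-90490713, plus strand: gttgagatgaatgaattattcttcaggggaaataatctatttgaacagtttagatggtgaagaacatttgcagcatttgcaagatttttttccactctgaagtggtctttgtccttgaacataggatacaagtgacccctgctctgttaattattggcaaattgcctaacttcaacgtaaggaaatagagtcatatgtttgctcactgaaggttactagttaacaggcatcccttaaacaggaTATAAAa
The Afp window holds TATAAA at bases -7 to -2 from the start. The upstream Rbp4 window holds the forkhead form (TGTTTAC) at -241 to -235, on the opposite strand, and the downstream one holds TATAAA at -28 to -23 in a sequence of 70.8% G and C. The Apoa1 window holds none of the 4 forms searched.

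The search covered these 250 bases only, and not the 50 bases after the start. Such windows were found for 8 of the 10 genes, 11 windows in all, and Ttr and Trf were not searched. The HNF4 form (CAAAGTCCA) was in 0 of the 11 windows and in 0.384% of the 32851 windows of all genes, the GATA form (AGATAA) in 1 (Hnf4a) and 9.99%, the forkhead form in 2 (Apoa2 and Rbp4) and 3.17%, and TATAAA in 4 (Apoa2, Apob, Afp and Rbp4) and 12.4%. A match is a description of the letters, not of a bound site, and its absence says only that these letters are not in the window.

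Apoa1, the main protein of high-density lipoprotein and the acceptor of cell cholesterol, had the largest change of the 10. Its level was 6.70 and 7.02 before RA, 8.28 and 8.90 after 3 days and 8.38 and 8.49 after 4 days. Each array in RA lay more than 1 log2 unit above both arrays of day 0, and the arrays of days 3 and 4 overlapped. At day 4 the level was 2.99-fold that of day 0 (log2 change 1.58, SE 0.19, adjusted p = 3.22e-04), and at day 3 it was 3.33-fold (1.73, SE 0.19, adjusted p = 2.13e-04). Of all genes, 2.68% had a larger log2 change at day 4 and 1.88% at day 3. Day 4 and day 3 were not told apart, with a difference of -0.16 and a 95% interval from -0.62 to 0.30 (adjusted p = 0.591). In bulk RNA of whole EBs, fewer cells of a type and less RNA per cell cannot be told apart, nor can more cells and more RNA per cell, here and for each gene that follows.

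Rbp4, the plasma carrier of retinol, measured 7.61 and 7.73 before RA, 8.40 and 9.0 after 3 days and 8.32 and 8.64 after 4 days. All 4 arrays in RA lay above both of day 0. The level was 1.75-fold that of day 0 at day 4 (log2 change 0.81, SE 0.19, adjusted p = 0.00906) and 2.04-fold at day 3 (1.03, adjusted p = 0.00287). The difference of day 4 from day 3 was -0.22 (adjusted p = 0.425). The call at day 4 was lost without replicate 1 of day 0 (0.75, adjusted p = 0.0529) or replicate 2 of day 4 (0.65, adjusted p = 0.0660), and that at day 3 was kept without any single array.

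Ttr, whose protein binds thyroid hormone and forms a complex with Rbp4 in plasma, measured 6.34 and 6.52 before RA, 6.90 and 7.38 after 3 days and 6.91 and 7.13 after 4 days. The days in RA again lay wholly above day 0 and overlapped each other. The level was 1.51-fold that of day 0 at day 4 (log2 change 0.59, SE 0.16, adjusted p = 0.0150) and rose by 0.71 on the log2 scale at day 3 (adjusted p = 0.00680), while day 4 differed from day 3 by -0.12 (adjusted p = 0.624). The day 4 call was lost without replicate 1 of day 0 (0.50, adjusted p = 0.0880) or replicate 2 of day 4 (0.48, adjusted p = 0.0955).

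The difference between the 2 arrays of a day was itself large for these 3 genes. At day 3, replicate 2 exceeded replicate 1 by 0.62 for Apoa1, 0.60 for Rbp4 and 0.47 for Ttr (log2). Replicate 2 was higher by as much for only 0.0251%, 0.0351% and 0.115% of all genes, the gene itself included. At day 0 it exceeded replicate 1 by 0.32, 0.11 and 0.19, and at day 4 by 0.12, 0.32 and 0.22, in the same order of genes. Trf went the other way on each day, with replicate 2 below replicate 1 by differences of -0.13 at day 0, -0.20 at day 3 and -0.13 at day 4. The replicate numbers do not tie a day 0 array to a day 3 or day 4 array in the labels, so these are differences within a day only. For Apoa1 the smallest distance between an array in RA and an array of day 0 was still larger than any difference within a day, and for Rbp4 and Ttr it was not.

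**Figure D2:**
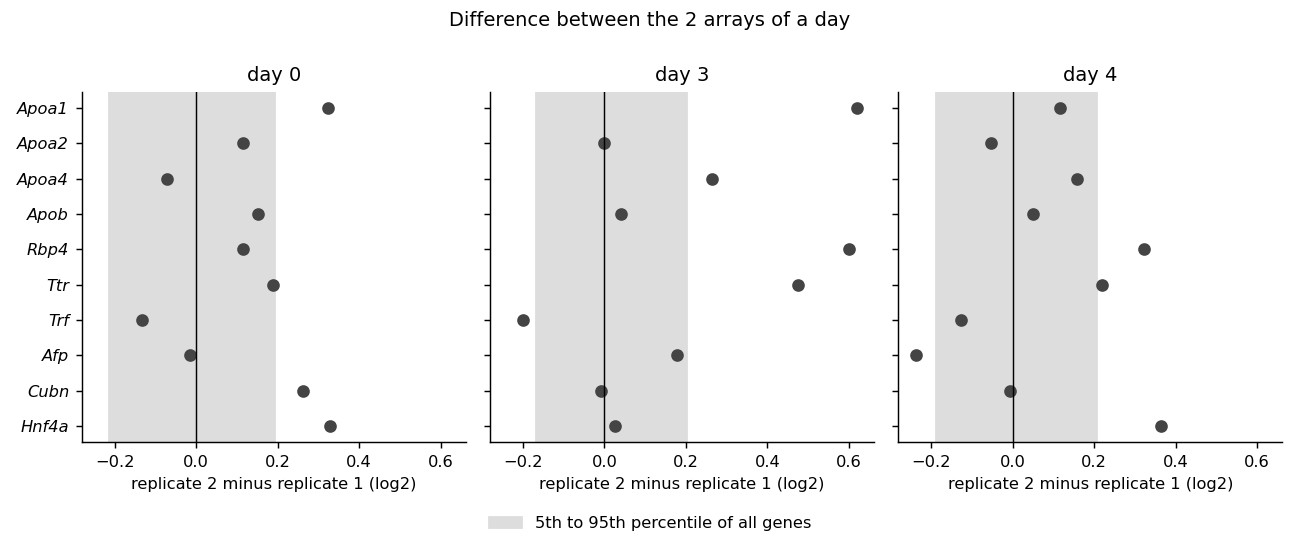
Difference of replicate 2 from replicate 1 (log2, horizontal axis) for the 10 genes on each day, with the range from the 5th to the 95th percentile of all genes in grey. At day 3, Apoa1 (0.62), Rbp4 (0.60) and Ttr (0.47) lay far to the right of the grey range.

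Afp, the fetal counterpart of albumin and a marker of yolk sac endoderm, was near the floor of the array. It measured 5.57 and 5.55 before RA, 5.39 and 5.56 after 3 days and 5.97 and 5.73 after 4 days, a mean of 5.63 over all arrays. Both arrays of day 4 lay above the other 4. The log2 change was 0.29 at day 4 against day 0 (adjusted p = 0.0336), -0.08 at day 3 against day 0 (adjusted p = 0.499) and 0.38 at day 4 against day 3 (adjusted p = 0.0240). The first of these calls was lost when either day 0 array or replicate 1 of day 4 was left out (0.17 without that array, adjusted p = 0.177), and with each array centred on the median of its genes (0.15, adjusted p = 0.191). Alb (albumin) and Afm (afamin, a vitamin E binding protein), which flank Afp in the genome and belong to the same family, had day means between 4.76 and 4.88 and no called change on any day, so a called change was seen for Afp alone of the 3.

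The other apolipoproteins of the set did not follow Apoa1. Apoa2, the second protein of high-density lipoprotein, measured 6.79 and 6.90 before RA, 6.79 and 6.79 after 3 days and 6.96 and 6.91 after 4 days. Its log2 change at day 4 against day 0 was 0.09, with a 95% interval from -0.05 to 0.23 (adjusted p = 0.269). Apoa4, a lipid-binding protein of intestine and yolk sac, measured 6.70 and 6.63 before RA, 6.60 and 6.86 after 3 days and 6.85 and 7.01 after 4 days. Both day 4 arrays lay above both of day 0, and the log2 change was 0.27 (95% interval 0.03 to 0.50, adjusted p = 0.0566), a value that fell on the other side of the threshold under 8 of 14 alternatives. Apob, the structural protein around which very-low-density lipoproteins are assembled, measured 5.30 and 5.46 before RA, 5.44 and 5.48 after 3 days and 5.32 and 5.37 after 4 days, with a log2 change of -0.03 at day 4 against day 0 (95% interval -0.19 to 0.12, adjusted p = 0.710). None of these 3 genes passed in any comparison.

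Apoa1 and Apoa4 lie in one gene cluster, in the order Apoa1, Apoc3, Apoa4, Apoa5. Apoc3, an inhibitor of lipoprotein lipase, had no called change (log2 change -0.08 at day 4 and -0.19 at day 3 against day 0), but it was undetectable by the study's limits (mean 5.96). Apoa5, which promotes triglyceride clearance, was lower at day 3 (-0.37, adjusted p = 0.00290) and not called at day 4 (-0.17, adjusted p = 0.0708). Within the cluster, a rise was called for Apoa1 and for no other gene in the main fit. Apoa4 lay near the threshold at day 4 against day 0 and was called higher under 8 of 14 alternatives.

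The genes that fell were Cubn and Trf. Cubn codes for cubilin, the endocytic receptor with which the visceral endoderm takes up albumin, Apoa1 of high-density lipoprotein, transferrin and the vitamin B12 carrier. It measured 6.68 and 6.95 before RA, 6.52 and 6.51 after 3 days and 6.22 and 6.22 after 4 days, so the 3 days did not overlap and followed the order of time. The level fell by 0.59 on the log2 scale at day 4 against day 0 (SE 0.09, adjusted p = 7.42e-04), by 0.30 at day 3 against day 0 (adjusted p = 0.0212) and by 0.29 at day 4 against day 3 (adjusted p = 0.0418). The first of these was kept without any single array. The call at day 3 was lost without replicate 2 of day 0 (-0.17, adjusted p = 0.0777) or without either array of day 3, and that between day 4 and day 3 without any one of their 4 arrays (adjusted p from 0.122 to 0.147) and with each array centred on the median of its probe sets (-0.16, adjusted p = 0.138).

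Trf, the plasma carrier of iron, measured 6.77 and 6.64 before RA, 6.29 and 6.09 after 3 days and 6.44 and 6.32 after 4 days. Both days in RA lay below day 0. It fell by 0.32 at day 4 (adjusted p = 0.0174) and by 0.52 at day 3 (adjusted p = 0.00186) against day 0, with a difference of 0.20 between day 4 and day 3 (adjusted p = 0.141). The call at day 4 was lost without replicate 1 of day 0 (-0.26, adjusted p = 0.1004) or replicate 2 of day 4 (-0.26, adjusted p = 0.103), and with each array centred on the median of its probe sets (-0.21, adjusted p = 0.0683).

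Hnf4a measured 6.79 and 7.12 before RA, 6.80 and 6.82 after 3 days and 6.96 and 7.32 after 4 days. The arrays of day 4 and day 0 overlapped, with a log2 change of 0.19 (95% interval -0.14 to 0.52, adjusted p = 0.310). The 2 arrays of day 4 lay above both of day 3, by a mean of 0.33 (adjusted p = 0.122). No change of this factor was called in any of the 3 comparisons, and its 2 arrays of a day differed by over 0.3 at day 0 and at day 4.

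**Figure D3:**
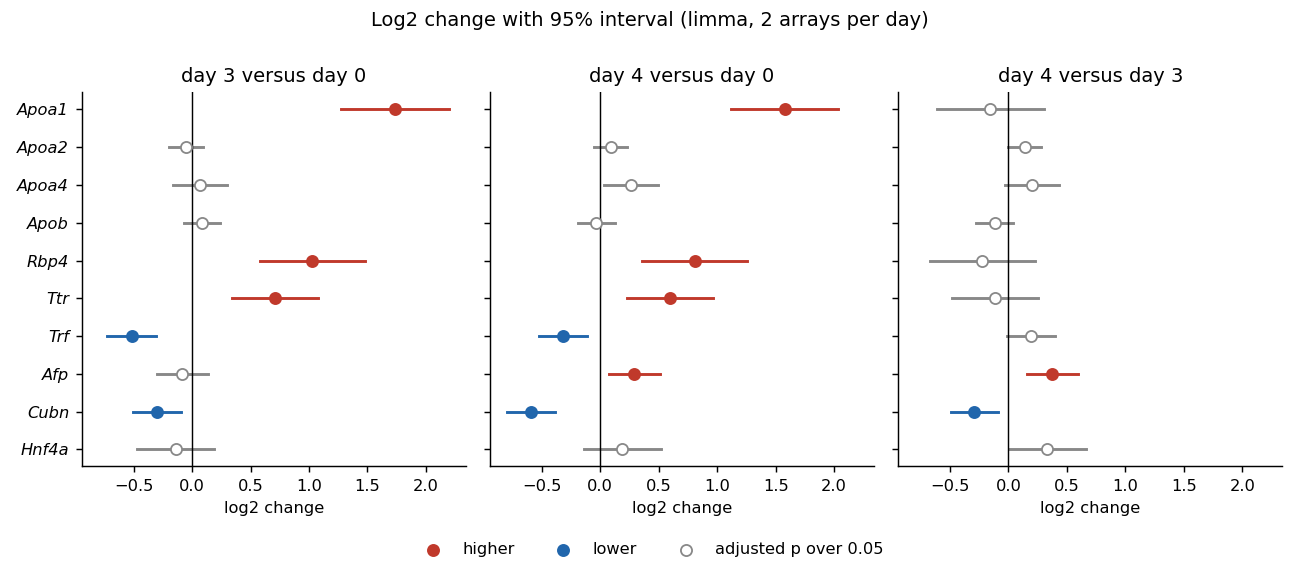
Log2 change (horizontal axis) of each of the 10 genes with its 95% interval in the 3 comparisons, red for called higher, blue for called lower and open grey for adjusted p above 0.05. Apoa1 lay farthest from 0 against day 0, at 1.73 for day 3 and 1.58 for day 4, and called changes between day 4 and day 3 were limited to Afp and Cubn.

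The members can be set beside the other genes of their pathways. For each list below, the shares over all genes at day 4 against day 0 were 25.9% higher and 25.6% lower. Of 22 measured genes of lipoprotein assembly and handling, 4 were higher, 8 were lower and 10 did not pass at day 4 against day 0 (median log2 change -0.05). By the study's limits, 6 of the 22 were undetectable. Abca1, the exporter that loads cholesterol and phospholipid onto Apoa1, measured 10.18 and 10.10 at day 4, against 6.20 and 6.39 at day 0, a log2 change of 3.84 (adjusted p = 7.35e-08). Lpl, lipoprotein lipase, rose by 1.53 (adjusted p = 4.51e-06). Mttp, the protein that loads lipid onto Apob, measured 7.71 and 7.55 at day 4, against 6.96 and 7.07 at day 0 (log2 change 0.62, adjusted p = 4.32e-04). Vldlr, a lipoprotein receptor, fell by 1.59 (adjusted p = 2.35e-06), and Apoe, a ligand of such receptors, fell to 10.75 and 10.73 at day 4, against 12.06 and 11.93 at day 0 (log2 change -1.25, adjusted p = 2.97e-06). So the loading factor of Apob rose, while Apob itself did not pass but was undetectable by the study's limits, so a change could have been missed. Apoa1 and Apoe moved in opposite directions.

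Of 11 measured genes of a list of cubilin partners and other genes of endocytosis and vitamin uptake, 4 were higher, 2 were lower and 5 did not pass at day 4 against day 0 (median 0.09). Amn, the amnionless protein that holds cubilin in the membrane, had day means between 6.85 and 6.94 and a log2 change of 0.01 (adjusted p = 0.929). Lrp2 (megalin), the receptor that works with cubilin, measured 7.63 and 7.53 at day 4, against 8.31 and 8.06 at day 0 (-0.61, adjusted p = 6.83e-04), and at day 3, with 8.36 and 8.37, was not called against day 0 (adjusted p = 0.126). Clcn5, an endosomal chloride transporter, fell by 0.37 (adjusted p = 0.00116). Dab2 and Myo6, the adaptor and the motor of this endocytic route, rose by 1.58 (adjusted p = 1.19e-06) and 0.93 (adjusted p = 1.36e-05). Both receptors were thus lower at day 4 while the adaptor and the motor, which also serve other cargo, were higher.

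For retinol, 8 genes of the list of cellular uptake and binding were measured. At day 4 against day 0, 4 were higher, 1 was lower and 3 did not pass (median 0.52). The list was broader than its name, as it also held Crabp1 and Crabp2, which bind RA, and Rdh10, which oxidises retinol. Crabp2 measured 9.15 and 9.12 at day 4, against 8.32 and 8.19 at day 0, and Rdh10 measured 10.12 and 10.09, against 9.31 and 9.04. Stra6, the cell-surface receptor for Rbp4, measured 10.12 and 10.21 at day 4, against 6.91 and 7.41 at day 0 (log2 change 3.00, adjusted p = 3.39e-06). Lrat, which stores retinol as esters, measured 8.24 and 8.31 at day 4, against 5.25 and 5.29 at day 0 (3.01, adjusted p = 2.97e-07). Rbp7, an intracellular retinol-binding protein, fell by 0.23 (adjusted p = 0.0245). With a mean of 5.68, Rbp7 was one of 3 genes of this list that were undetectable by the study's limits. The carrier and its receptor therefore both rose, the carrier by 0.81 and the receptor by 3.00.

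For iron, 2 of 14 measured genes were higher, 6 were lower and 6 did not pass (median -0.16). Tfrc, the transferrin receptor, measured 10.34 and 10.27 at day 4, against 11.55 and 11.50 at day 0 (-1.22, adjusted p = 3.40e-06), and it was also lower at day 3 (-0.53, adjusted p = 2.69e-04), so carrier and receptor both fell on both days. Hmox1, which frees iron from haem, fell by 0.98 (adjusted p = 1.16e-05). Hfe, a partner of the transferrin receptor, rose by 0.72 (adjusted p = 3.45e-05), and Heph, an iron oxidase of export, by 0.42 (adjusted p = 0.00334).

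Of 27 other plasma proteins of yolk sac and liver, 21 were undetectable by the study's limits, and at day 4 against day 0, 1 was higher, 3 were lower and 23 did not pass (median 0.03). Ambp, the precursor of a protease inhibitor, rose by 0.22 (adjusted p = 0.0175), but with a mean of 5.23 it was one of the 21 under the detection limits. Ttpa, the vitamin E transfer protein, fell by 0.64 (adjusted p = 4.65e-04), and F10, coagulation factor X, fell by 0.38 (adjusted p = 0.00383). The called rises of Apoa1, Rbp4 and Ttr thus stood beside a plasma protein list that was largely at the floor of the array.

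Among 17 measured regulators of endoderm and liver, 6 were higher, 4 were lower and 7 did not pass (median -0.01). Gata4 and Gata6, zinc-finger factors of extraembryonic endoderm and also of heart, rose by 1.67 (adjusted p = 3.83e-07) and 1.99 (adjusted p = 2.01e-07). Ppargc1a, a coactivator that can work with Hnf4a, rose by 2.17 (adjusted p = 3.63e-06). Foxa2, a forkhead factor upstream of Hnf4a in the mouse visceral endoderm, had a log2 change of 0.32 (adjusted p = 0.0503). Hhex, a homeobox factor of anterior visceral endoderm and liver bud, fell by 2.56 (adjusted p = 8.05e-08), and Prox1, of hepatoblasts and lymphatic vessels, fell by 1.20 (adjusted p = 2.92e-05).

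**Figure D4:**
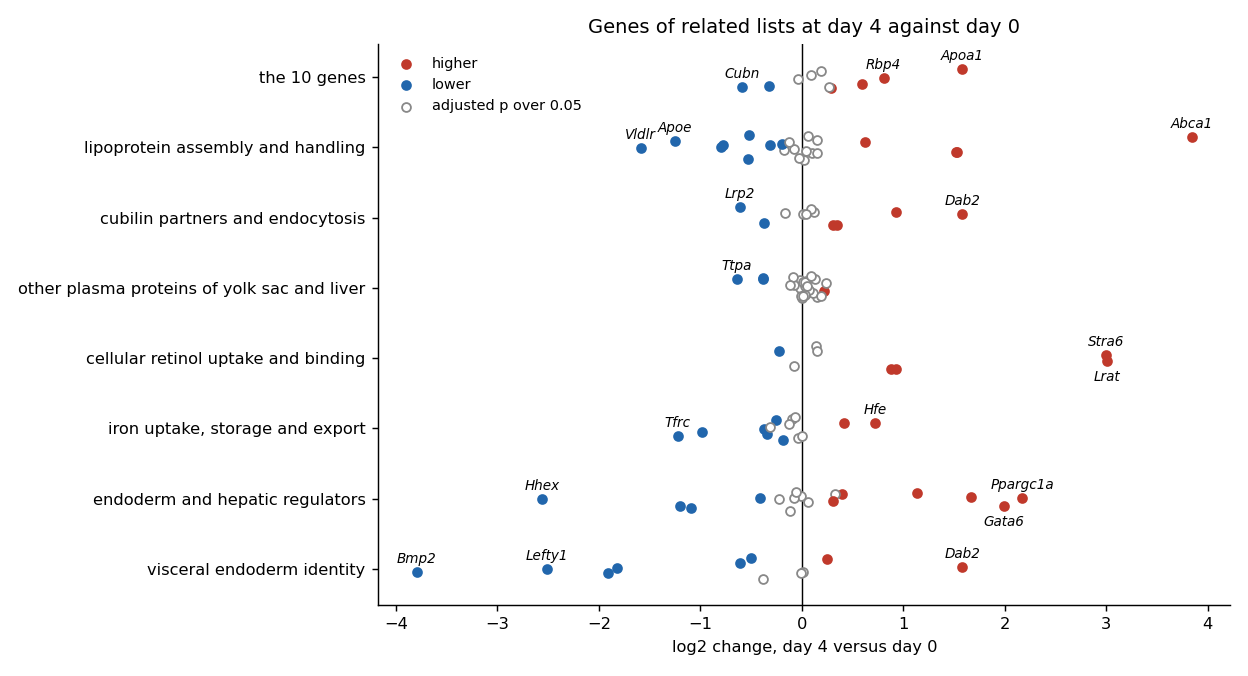
Log2 change at day 4 against day 0 (horizontal axis) of the 10 genes and of the measured genes of 7 related lists, 1 point per gene, red for called higher, blue for called lower and open grey for adjusted p above 0.05. The list of other plasma proteins lay mostly around 0, while the retinol list reached 3.01 with Lrat and 3.00 with Stra6, and the visceral endoderm identity list reached -3.79 with Bmp2.

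The tissue name of the 10 genes was checked against other markers of visceral endoderm. Of 11 measured, 2 were higher, 6 were lower and 3 did not pass at day 4 against day 0 (median log2 change -0.50), and 2 were undetectable by the study's limits. The summed linear intensity of the 11 lay between 4006 and 4064 at day 4, against 6689 and 6815 at day 0. The largest part of the day 0 sum was Dkk1, at 11.32 and 11.31 at day 0 and 9.51 and 9.48 at day 4. For the day 4 sum it was Dab2, at 11.07 and 11.05 at day 4 and 9.51 and 9.44 at day 0. Bmp2, a growth factor of visceral endoderm and of mesoderm, fell by 3.79 (adjusted p = 4.95e-08), and Lefty1, a Nodal inhibitor of anterior visceral endoderm and epiblast, fell by 2.51 (adjusted p = 6.78e-06). The 2 that rose were Dab2, which the cubilin list also holds, and Ihh, a hedgehog ligand (0.25, adjusted p = 0.00668). Afp was near the floor and Amn had no called change. Beside the rises of Apoa1, Rbp4 and Ttr, more of the other markers of this tissue fell (6) than rose (2). The 10 genes are named here by the list and not by a cell type seen in the EBs.

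Several of the 10 genes are also used by other tissues, and the markers of those tissues were measured in the same RNA. For gut, pancreas and mature liver, which make Apoa1 and Apob, 0 of 12 measured genes were higher and 2 were lower at day 4 against day 0 (Cdx2, -4.75, and Tdo2, -2.04), 7 were undetectable, and the summed intensity was 647 to 675 at day 4, against 3099 to 3432 at day 0. Cdx2 alone, at 11.41 and 11.26 (log2) on the day 0 arrays, made up most of the day 0 sum. For choroid plexus, a main source of Ttr in the brain, 1 of 11 was higher (Aqp1, 1.57, a water channel also of vessels) and 4 were lower, Msx1 (-2.63) and Otx2 (-1.32) most, 6 were undetectable, and the sum was 955 to 1057 at day 4, against 2117 to 2154 at day 0. Here Msx1, at 10.33 and 10.41 on the day 0 arrays, made up most of the day 0 sum. For kidney proximal tubule, which uses Cubn, 0 of 6 were called in limma at day 4 against day 0, 0 also had an unadjusted p under 0.05, and 3 were undetectable, with a sum of 366 to 376 at day 4, against 357 to 370 at day 0. For oligodendrocytes, which make Trf, 0 of 8 were called, again with 0 at an unadjusted p under 0.05, and 4 were undetectable, with 1280 to 1304 at day 4, against 1330 to 1342 at day 0.

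Of the parietal endoderm list, the sister layer of visceral endoderm, 5 of 14 were higher and 9 lower (median log2 change -0.50). Plat (4.24) and Pth1r (0.58) led the rises and Fst (-2.37) and Sox7 (-1.09) the falls, and 0 were undetectable. The sum was 20847 to 20980 at day 4, against 18707 to 19444 at day 0. Sparc, at 13.23 and 13.21 at day 4, against 13.00 and 12.94 at day 0, was the largest part of both sums. Plat measured 11.73 and 11.73 at day 4, against 7.72 and 7.27 at day 0, so the higher sum does not describe most genes of the list. Of trophoblast genes, 2 of 4 were lower (Hand1, -5.02, and Plac1, -1.99) and the other 2 were undetectable, with a sum of 491 to 519 at day 4, against 6206 to 6324 at day 0. Hand1 alone, at 12.33 and 12.28 (log2) on the day 0 arrays, made up most of that day 0 sum. Of embryonic stem cell genes, 7 of 8 were lower, Tdgf1 (-4.97) and Pou5f1 (-4.09) most, and 1 was undetectable, with a sum of 855 to 1039 at day 4, against 6051 to 6220 at day 0. The part of these cell types in the changes of the 10 genes was not tested.

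For the genes of the set whose day means spanned at least 1 log2 unit, Apoa1 and Rbp4, the genes most alike over the 6 arrays were found after each gene was centred on its own mean, by the root mean square of the 6 differences. Nearest to Apoa1 were Inhba, a subunit of activin (0.13), Sncg, gamma-synuclein (0.16), and Gfra3, a receptor subunit for artemin (0.17). Inhba measured 6.24 and 6.29 before RA, 7.82 and 8.12 after 3 days and 7.84 and 7.80 after 4 days. Nearest to Rbp4 were Fas, a death receptor (0.14), Ttr (0.14) and Pnoc, the precursor of nociceptin (0.15), so a member of the set was among the nearest to Rbp4 and no member was among those of Apoa1. The likeness is a description over 6 arrays and was not tested.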

How the data were processed

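Total RNA of R1 EBs was measured on single-colour Affymetrix Mouse Gene 1.0 ST arrays, 1 sample per array. The authors ran RMA in Partek and deposited the resulting log2 intensities. The software version for the arrays and the genome build are not given in the sources used here. RMA can compress differences of dim signals, which was not measured here.

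Sample titles gave the day and the replicate number. Probe sets with a single gene symbol were kept, and for a gene with several the one with the highest mean was used, which left 19938 genes. The limma package 3.58.1 in R 4.3.3 was used for 1 fit (lmFit, eBayes) of all 6 arrays, with 3 residual and 4.07 prior degrees of freedom and two-sided tests. SE and 95% intervals come from this fit. Precision is limited by the number of arrays, as intensities carry no depth. The fit was first tested on simulated data.

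The members, the 14 related lists and the tests were chosen with earlier results of these data known. All members were described, then the 2 largest called rises and falls of each list at day 4 against day 0, and genes tied to a member (a receptor, partner or neighbour). Predicted genes, clone names and small RNAs were skipped in the search for like genes. Ihh, Aqp1 and the genes singled out by their replicate differences were chosen after their values were seen. Summed intensities are sums of 2 to the power of the log2 values. Promoters and gene order came from RefSeq (GRCm38.p6), which was not used to place probe sets. Python 3.11.15 with matplotlib 3.10.9 was used for sequences and figures. The 14 alternatives were other centrings and normalizations, a filter on dim genes, another moderation, a replicate block, a fit of the compared days only and leaving out each array.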

Additional observations from a re-analysis of the deposited data

Results flagged for a closer look

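Among the 10 genes, the change against day 0 differed between day 4 and day 3 for Afp, by 0.38 on the log2 scale (day 4 minus day 3, adjusted p = 0.0240 in limma), and for Cubn, by -0.29 (adjusted p = 0.0418). Both comparisons share the day 0 arrays, so this is the comparison of day 4 with day 3 itself. Afp was higher on both arrays of day 4 than on both of day 3, at 5.97 and 5.73 against 5.39 and 5.56, all below an intensity of 6. Cubn was lower, at 6.22 and 6.22 at day 4 against 6.52 and 6.51 at day 3. Both calls depended on the arrays used: that of Afp was lost without replicate 1 of day 3 (adjusted p = 0.132) or of day 4 (adjusted p = 0.0999), and that of Cubn without any 1 of the 4 arrays. With 2 arrays per day, no sample could be examined as an outlier within its group.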

How the results depend on the processing

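Of the 10 genes, 6 were called at day 4 against day 0, 5 at day 3 against day 0 and 2 at day 4 against day 3. Leaving out 1 array in turn gave 2 to 7 at day 4 against day 0 and 0 to 2 at day 4 against day 3. The last count was 5 with each array centred on its probe set median, 1 when dim genes (mean below 6) were removed, Afp among them, and 4 with a replicate block, which gave 7 at day 4 against day 0. Over all genes, the replicate differences of different days correlated at 0.03 to 0.08. Whether same-numbered arrays share a culture or a batch is not in the labels and was not tested. Apoa1, and Cubn at day 4, kept their calls against day 0 under all 14 alternatives, as did Rbp4, Ttr and Trf at day 3.

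Changes of sign were confined to values that were not called. With probe set median centring, Apob was 0.0724 at day 4 against day 0, and at day 4 against day 3 Apob was 0.0120 and Ttr 0.0148. With gene median centring (added after seeing the data), Apoa2 was -0.0574 at day 4, and Apoa4 -0.0341 and Apob -0.0167 at day 3, against day 0. With cyclic loess, Apob was 0.0008 at day 4 against day 0. Without 1 array in turn, Apob ranged from -0.110 to 0.0416 at day 4 against day 0. At day 3 against day 0, Afp ranged from -0.172 to 0.0059, Apoa2 from -0.109 to 0.0063, Apoa4 from -0.0656 to 0.199 and Hnf4a from -0.305 to 0.0227. At day 4 against day 3, Ttr ranged from -0.353 to 0.122, Apoa1 from -0.466 to 0.153 and Rbp4 from -0.522 to 0.0768. The cause was not tested.

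The 2 centrings moved the median log2 change of all genes to 0.11 (probe sets) and -0.15 (genes) at day 4 against day 0, to -0.07 and -0.15 at day 3 against day 0, and to 0.18 and 0.00 at day 4 against day 3. Higher and lower calls over all genes were 5154 and 5106 at day 4 against day 0, 7132 and 3915 with the first centring and 3781 and 8521 with the second. At day 3 against day 0 they were 4749 and 5596, then 4450 and 6024, and 3889 and 8495. At day 4 against day 3 they were 3156 and 2437, then 8829 and 1381, and 2268 and 3081. The median of the 10 genes at day 4 against day 0 was 0.33 with the first centring and 0.08 with the second, and 0.15 to 0.26 without 1 array in turn.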

Other observations

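Over all genes, 4 had differences of replicate 2 from replicate 1 at least as large as the smallest of Apoa1, Rbp4 and Ttr on each of the 3 days (0.11 at day 0, 0.47 at day 3 and 0.12 at day 4, log2). They were these 3 genes, whose values set the limits, and Mogat2, an acyltransferase of dietary fat absorption in the intestine, with differences of 0.23, 0.60 and 0.40. Unlike Apoa1, Mogat2 was lower in RA, with log2 changes of -3.95 at day 4 and -3.74 at day 3 against day 0. Car4, a carbonic anhydrase, had the largest excess of replicate 2 over replicate 1 at day 3 (1.05), with 0.11 at day 0 and 0.14 at day 4. Genes with replicate 2 below replicate 1 were not ranked. These genes were singled out after their values were seen, and nothing about them was tested.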
